A study of Mus musculus with 6 samples.

Results

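Potassium channel subunits were described across the 3 main cell types of the mouse airway surface. They were chosen by name, as every gene of the authors' per-gene table whose symbol is Kcn followed by letters and a number, with antisense and opposite-strand names left out. The rule gave 92 of the 20315 named genes, and 5 further names that begin with Kcn (Kcnd3os, Kcne1l, Kcnmb4os1, Kcnmb4os2 and Kcnrg) fell outside it. The study sorted surface epithelium of C57BL/6 mice by flow cytometry into ciliated cells (EpCAM positive, CD24 positive and negative for the lectin GSIβ4), club cells (EpCAM and SSEA1 positive, called secretory in the gating text) and basal cells (EpCAM and GSIβ4 positive). No group carried a treatment or an altered allele, and the age and sex of the mice are not stated in the labels. Each type was measured on 2 arrays, which the labels call biological replicates without naming the animals, so the p-values measure the spread between these samples, which may be technical. Levels are RMA values on a log2 scale, on which 1 unit is a 2-fold difference, and they have no true zero and no detection calls. Differences are therefore read between cell types. Where genes are ranked or summed within an array, this describes array values and not amounts of RNA. Such sums also include each gene's background signal.

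Markers matched the sort labels in most respects. All 10 ciliated markers were higher in ciliated than in club and in basal arrays, and their mean level was 11.62 and 11.61 in ciliated arrays, 6.79 and 6.81 in club arrays and 6.13 and 6.46 in basal arrays. Of the 10 basal markers, 10 were lower in ciliated than in basal arrays and 9 were lower in club than in basal arrays. Club markers were less clear-cut: 8 of 10 were higher in club than in basal arrays, but only 4 of 10 were lower in ciliated than in club arrays. The list averaged 12.56 and 12.29 in ciliated arrays, 13.32 and 13.35 in club arrays and 10.90 and 11.24 in basal arrays. In all types Cyp2f2 (means 14.45, 14.48 and 14.30) and Cbr2 (14.34, 14.32 and 14.19) lay near the array maxima of 14.40 to 14.54. Whether the top of the scale hid differences was not tested. Across genes, which are not independent replicates, arrays of the same type had a Pearson correlation of 0.989 (ciliated pair), 0.987 (club pair) and 0.975 (basal pair). The basal pair was the least alike: the genes that differed by more than 1 log2 unit within a pair numbered 100 (ciliated), 193 (club) and 613 (basal). Among the potassium channel subunits these numbers were 0, 0 and 2.

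Potassium channels let potassium leave the cell and so set the membrane voltage. In an airway epithelium that voltage is the driving force for chloride secretion through apical channels and for sodium absorption, and both set the depth of the liquid in which cilia beat. The pore-forming subunits fall into calcium-activated, voltage-gated, inward-rectifying and two-pore-domain (leak) families. Accessory subunits without a pore, such as the BK beta, Kv beta, KChIP and KCNE proteins, change the gating or the surface delivery of the pores they bind. The 92 genes comprised 77 pore-forming and 15 accessory subunits.

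The promoters of members that were higher in ciliated cells are shown because RFX and forkhead factors are known to drive the ciliary gene program. The sequences come from RefSeq (mouse build GRCm38.p6), which had an entry for 67 of the 92 members. Shown first, up to the gene's annotated start, are the upstream bases of Kcnmb1 (chr11:33962763-33962954, plus strand) and of Kcnk12 (chr17:87797995-87798244, minus strand), and then a 30-base stretch of the Kcnab2 promoter (chr4:152448910-152448939, minus strand) in which capitals mark a match to the RFX half-site that begins 72 bases before a transcript start.
Kcnmb1: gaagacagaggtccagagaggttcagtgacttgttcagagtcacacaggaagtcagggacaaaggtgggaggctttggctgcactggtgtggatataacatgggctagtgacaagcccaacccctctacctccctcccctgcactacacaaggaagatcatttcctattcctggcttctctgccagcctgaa
Kcnk12: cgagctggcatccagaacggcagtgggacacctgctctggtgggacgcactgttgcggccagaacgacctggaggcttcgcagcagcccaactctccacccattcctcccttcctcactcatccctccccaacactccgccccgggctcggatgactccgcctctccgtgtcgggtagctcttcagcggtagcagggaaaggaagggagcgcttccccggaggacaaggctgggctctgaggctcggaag
Kcnab2: tcctgtcccctaGGCAACtacaccgtccac

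Both strands of the full 250 bases before each annotated transcript start, of which the Kcnmb1 stretch shows 192, were searched for the RFX half-site GTTGCC (reverse complement GGCAAC) and the forkhead motif TGTTTAC (reverse complement GTAAACA). The half-site occurred in 10.4% of 32851 promoter windows of all genes and in 15.2% (14 of 92) of the members' windows. Among 6 windows of members higher in ciliated cells than in both other types, 1 held it, and it was 1 of the 3 windows of Kcnab2. Of these 5 genes, 4 had an entry. The forkhead motif occurred in 3.17% of all windows and in 0 of the members' 92. Of the other sequences shown, neither the Kcnmb1 nor the Kcnk12 stretch held either motif. A match is a description of letters and not of a bound site.

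Few members differed between cell types, and the share that did was near that of all genes in the contrasts with ciliated cells. A gene was called in a contrast when limma's moderated test passed an adjusted p of 0.05 (Benjamini-Hochberg, with every one of the 20315 genes in the adjustment). In ciliated minus basal, 9 members were higher (beside 9.29% of all genes) and 5 lower (beside 8.28%), in all 15.2% of 92, beside 17.6% of all genes called. In club minus basal, 6 were higher (beside 4.35%) and 4 lower (beside 3.67%), in all 10.9%, beside 8.02% of all genes. In ciliated minus club, 8 were higher (beside 7.93%) and 6 lower (beside 7.46%), in all 15.2%, beside 15.4% of all genes. Without ciliated replicate 2 the totals for ciliated minus basal and ciliated minus club were 8 each, and without club replicate 2 the club minus basal total was 4. The median absolute log2 difference of the members was 0.134, 0.207 and 0.188 in these contrasts, against 0.236, 0.228 and 0.240 over all genes. Since these are bulk measurements of sorted populations, fewer cells of a type and less RNA per cell cannot be told apart.

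In all, 21 members (22.8%) were called in at least 1 contrast, beside 24% of all genes, and 18 of them (19.6%, beside 16.2% of all genes) by at least 1 log2 unit in a called contrast. Setting a type apart was defined as being called higher than in both other types by at least 1 log2 unit. Ciliated cells were set apart by Kcnmb1, Kcnmb2, Kcnh3, Kcnk12 and Kcnab2 (5 members, 5.43%, beside 4.76% of all genes). Club cells were set apart by Kcnn4, Kcne3, Kcnj15, Kcnk1 and Kcnk2 (5 members, 5.43%, beside 1.47%), and basal cells by Kcnh1 and Kcnip3 (2 members, 2.17%, beside 1.81%). Of the ciliated members, 3 of 5 were accessory subunits (3 of 15 accessory and 2 of 77 pore-forming genes). Of the 5 club members, 4 were pores, at similar shares of the 2 groups (4 of 77 pore-forming genes, 5.19%, and 1 of 15 accessory genes, 6.67%). The count for club cells was the least stable, at 1 to 4 when single arrays were left out (1 without club replicate 2 and 2 without ciliated replicate 2). The basal count was 1 without either of these arrays.

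**Figure D1:**
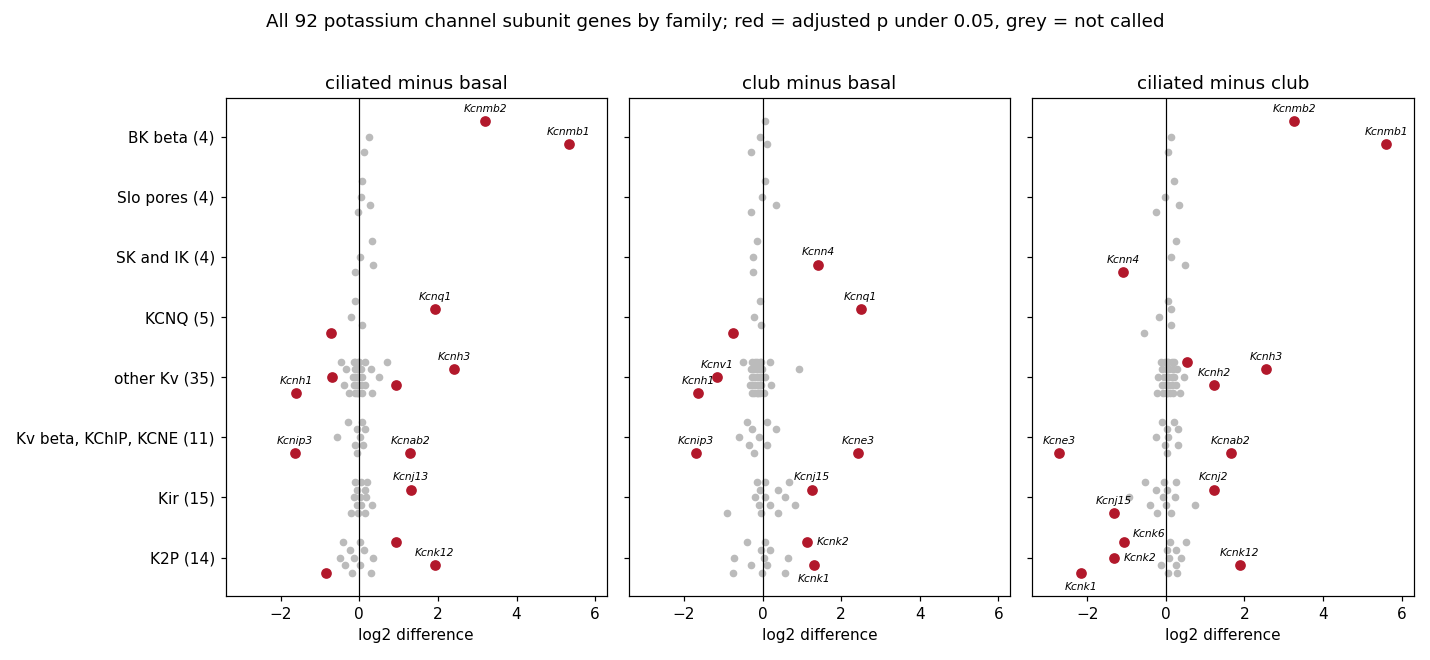
Log2 difference of each of the 92 members (x axis) in the 3 contrasts (panels), grouped by family (rows, number of genes in brackets); red points were called at an adjusted p under 0.05, grey points were not, and members called with at least 1 log2 unit are named. Most grey points lie within 0.5 units of 0, and the right side of the ciliated panels is taken by the BK beta subunits Kcnmb1 (5.32 and 5.61) and Kcnmb2 (3.20 and 3.27).

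The largest difference of any member was that of Kcnmb1, the beta subunit known from smooth muscle for making the large-conductance BK channel more sensitive to calcium. Its level was 11.51 and 11.38 in ciliated arrays, 5.76 and 5.92 in club arrays, and 5.83 and 6.41 in basal arrays. The ciliated arrays lay far above the rest, while club and basal arrays overlapped. The ciliated level was 40.0-fold higher than the basal level (log2 difference 5.32 ± 0.22 SE, adjusted p = 6.7e-06 in limma) and 48.8-fold higher than the club level (5.61 ± 0.22, adjusted p = 8e-06). Club minus basal was -0.28 (95% interval -0.79 to 0.22).

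Kcnmb2, the beta subunit whose N-terminus can inactivate BK channels, had the same order of cell types. It stood at 8.90 and 8.64 in ciliated arrays, 5.41 and 5.59 in club arrays, and 5.38 and 5.77 in basal arrays. Again only the ciliated arrays stood apart, 9.18-fold above basal (3.20 ± 0.20, adjusted p = 3.5e-05 in limma) and 9.64-fold above club arrays (3.27 ± 0.20, adjusted p = 4.1e-05). Both BK beta subunits kept both calls under each of the 14 alternatives run. The remaining beta genes showed no such pattern: Kcnmb3 ranged from 7.17 to 7.47 and Kcnmb4 from 5.77 to 6.31 over the 6 arrays, and neither was called.

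No difference was called for the pore that these subunits modify. Kcnma1, which encodes the BK pore, was at 5.85 and 5.29 in ciliated arrays, 5.45 and 5.29 in club arrays, and 5.24 and 5.35 in basal arrays, so all types overlapped. Ciliated minus basal was 0.28 (95% interval -0.22 to 0.77, adjusted p = 0.49 in limma) and ciliated minus club 0.20 (-0.29 to 0.70, adjusted p = 0.62). These intervals leave out a difference of 1 log2 unit in the array values, but they come from a single probe set. Except in ciliated replicate 1, Kcnma1 also lay under the 25th percentile of its array (5.55 to 5.69 over the 6 arrays). At so low a level, and without detection calls, the intervals cannot exclude such a difference in RNA. The other pores of this family, Kcnu1, Kcnt1 and Kcnt2, were not called either.

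Lrrc26, a BK gamma subunit that shifts BK opening to more negative voltages and is known from secretory epithelia, followed another order. Its level was 11.34 and 11.22 in ciliated arrays, 12.65 and 12.89 in club arrays, and 11.01 and 11.71 in basal arrays. Club arrays were highest, with a club minus basal difference of 1.41 ± 0.24 (adjusted p = 0.013 in limma) and a ciliated minus club difference of -1.49 ± 0.24 (adjusted p = 0.0057). Ciliated and basal arrays overlapped. So the beta subunits Kcnmb1 and Kcnmb2 and the gamma subunit Lrrc26 differed in which cell type carried the higher level. The other gamma genes read, Lrrc38, Lrrc52 and Lrrc55, were called in no contrast.

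**Figure D2:**
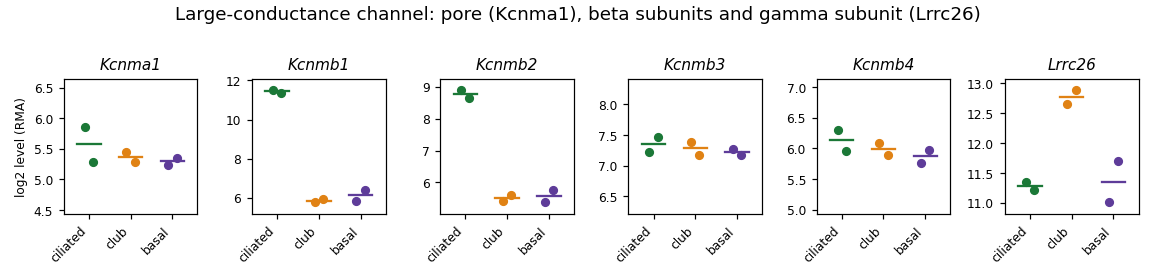
Log2 level in each array (points) and the mean of each cell type (lines) for the BK pore Kcnma1, the 4 beta subunits and a gamma subunit, Lrrc26, each panel with its own y range. Kcnmb1 and Kcnmb2 are high in both ciliated arrays, Lrrc26 in both club arrays, and Kcnma1 overlaps between all 3 types.

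Because Kcnmb1 is best known from smooth muscle, a list of 10 smooth muscle and myoepithelial markers was read beside it. None was called higher in ciliated than in basal or club arrays. Their summed linear level was 957.8 and 1048 in ciliated arrays, 948 and 1120 in club arrays, and 1131 and 1016 in basal arrays. Myh11, a contractile myosin that defines smooth muscle, was at 6.46 and 6.43 in ciliated arrays, 6.53 and 6.25 in club arrays, and 6.25 and 6.12 in basal arrays. In ciliated minus basal, Cnn1 (0.92, adjusted p = 0.073 in limma) and Tagln (0.55, adjusted p = 0.070) leaned higher without a call. Mylk leaned lower (-0.50, adjusted p = 0.070), and Smtn was called lower (-0.93, adjusted p = 0.0041). The part of smooth muscle cells in the Kcnmb1 values was not tested. Kcnmb1 also overlaps the gene Kcnip1 in the RefSeq annotation, and Kcnip1 lay between 4.70 and 5.11 in all arrays.

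Among the small- and intermediate-conductance calcium-activated channels only Kcnn4 was called. It encodes the intermediate-conductance channel that, in secretory epithelia, lets calcium signals drive potassium out across the basolateral membrane. It was at 7.14 and 6.71 in ciliated arrays, 7.76 and 8.28 in club arrays, and 6.64 and 6.57 in basal arrays, and both club arrays were above all others. Club was 2.66-fold above basal (1.41 ± 0.23, adjusted p = 0.011 in limma), and ciliated was 2.13-fold below club (-1.09 ± 0.23, adjusted p = 0.017). The first call ended without club replicate 2 (1.15, adjusted p = 0.062), and the second without ciliated replicate 2 (-0.87) or club replicate 2 (-0.83), with limma adjusted p values of 0.14 and 0.098 in these cases. Kcnn1, Kcnn2 and Kcnn3 were not called.

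Kcnq1 was higher in both luminal types than in basal cells. It is a voltage-gated pore that, joined by Kcne3, forms a channel open at resting voltage, which supports chloride secretion driven by cyclic AMP in airway and colon. Its level was 8.90 and 9.27 in ciliated arrays, 9.33 and 9.96 in club arrays, and 7.24 and 7.06 in basal arrays. Basal arrays were lowest, by 3.81-fold against ciliated (1.93 ± 0.24, adjusted p = 0.0014 in limma) and 5.64-fold against club (2.50 ± 0.24, adjusted p = 0.0012). Both calls held under every alternative run. Ciliated minus club was -0.56 (95% interval -1.14 to 0.01, adjusted p = 0.19), so a difference between the luminal types was not resolved.

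Its partner Kcne3 was high in club cells, and ciliated and basal arrays overlapped. The level was 7.36 and 6.45 in ciliated arrays, 9.74 and 9.48 in club arrays, and 6.37 and 8.01 in basal arrays. The spread of the basal pair, 1 of the 2 members in which basal arrays differed by more than 1 unit, makes the club minus basal value of 2.42 ± 0.52 uncertain (95% interval 1.21 to 3.63, 5.35-fold, adjusted p = 0.032 in limma). Ciliated minus club was -2.70 ± 0.52 (6.52-fold lower, adjusted p = 0.012). The club minus basal call ended without either ciliated array (adjusted p = 0.066 each), without club replicate 1 (0.14), without club replicate 2 (0.10) and with 2 cell types in the fit (0.066). The ciliated minus club call ended without ciliated replicate 2 (-2.25, adjusted p = 0.11) and without club replicate 1 (-2.58, adjusted p = 0.063).

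Among the other KCNQ genes only Kcnq5, a subunit of the slow M-type current of neurons, was called. It averaged 5.64 in ciliated, 5.59 in club and 6.35 in basal arrays. Basal arrays were highest by less than 1 unit, at -0.71 for ciliated minus basal (adjusted p = 0.026 in limma) and -0.76 for club minus basal (adjusted p = 0.038). The first call ended without ciliated replicate 1 (adjusted p = 0.054), ciliated replicate 2 (0.18) or basal replicate 1 (0.072). The second ended when any 1 of the 6 arrays was left out (adjusted p from 0.066 to 0.21) and under each other scaling (0.051 to 0.057).

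The remaining voltage-gated alpha and modifier genes numbered 35, and 5 were called in some contrast, beside 24% of all genes. Kcnh3, an ether-a-go-go relative (Elk group) known mainly from forebrain neurons, was at 9.15 and 9.48 in ciliated arrays, 6.83 and 6.71 in club arrays, and 7.04 and 6.77 in basal arrays. Only ciliated arrays stood apart, 5.30-fold above basal (2.41 ± 0.19, adjusted p = 0.00011 in limma) and 5.84-fold above club (2.55 ± 0.19, adjusted p = 0.00011). Its annotated span overlaps Mcrs1, which was at 8.72 and 8.74 in ciliated arrays, 8.47 and 8.64 in club arrays, and 8.68 and 9.55 in basal arrays.

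Kcnh2, the pore of the rapid repolarising current of heart muscle, had the same order on a smaller scale. It was at 7.51 and 7.91 in ciliated arrays, 6.47 and 6.50 in club arrays, and 6.73 and 6.81 in basal arrays, with both ciliated arrays on top. The ciliated minus club difference was 1.22 ± 0.18 (2.33-fold, adjusted p = 0.0036 in limma). Ciliated minus basal was 0.94 ± 0.18 (1.92-fold, adjusted p = 0.01) and lost its call without ciliated replicate 2 (0.74, adjusted p = 0.080). Kcnc1, a fast-gating channel of fast-spiking neurons, was 0.54 higher in ciliated than in club arrays (adjusted p = 0.049). That call ended when any 1 of the ciliated or club arrays was left out (adjusted p from 0.14 to 0.23) and under each other scaling (0.091 to 0.10).

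In basal cells the higher genes of this family were Kcnh1 and Kcnv1. Kcnh1, the ether-a-go-go channel studied in dividing and tumour cells, was at 6.31 and 5.91 in ciliated arrays, 6.06 and 6.09 in club arrays, and 7.64 and 7.77 in basal arrays. Basal arrays were above all others, with -1.60 ± 0.18 for ciliated minus basal (3.03-fold lower, adjusted p = 0.0008 in limma) and -1.63 ± 0.18 for club minus basal (3.10-fold lower, adjusted p = 0.002). Both calls held under every alternative run. Kcnv1, a subunit that forms no channel alone and modifies other Kv pores, was at 6.03 and 5.87 in ciliated arrays, 5.57 and 5.41 in club arrays, and 6.59 and 6.71 in basal arrays.

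For Kcnv1 the 3 types did not overlap, and basal was highest. Club minus basal was -1.16 ± 0.16 (2.23-fold lower, adjusted p = 0.0054 in limma). Ciliated minus basal was -0.70 ± 0.16 (adjusted p = 0.021), a call that ended without ciliated replicate 1 (adjusted p = 0.072), ciliated replicate 2 (0.15) or basal replicate 2 (0.064). Ciliated minus club, 0.46, was not called (adjusted p = 0.11).

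Among the Kv beta, KChIP and KCNE genes, Kcnab2 and Kcnip3 were called beside Kcne3. Kcnab2, a Kv beta subunit with an aldo-keto reductase fold that binds Kv pores from the cytoplasm, was at 7.97 and 7.73 in ciliated arrays, 6.18 and 6.22 in club arrays, and 6.59 and 6.51 in basal arrays. Ciliated arrays were highest, 2.46-fold above basal (1.30 ± 0.16, adjusted p = 0.0012 in limma) and 3.14-fold above club (1.65 ± 0.16, adjusted p = 0.00044). The gene overlaps Nphp4, a ciliary transition zone gene, which was at 8.74 and 8.89 in ciliated arrays, 6.65 and 6.82 in club arrays, and 6.76 and 6.93 in basal arrays. The probes' strand is not stated in the labels, and the part of Nphp4 in the Kcnab2 values was not tested.

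Kcnip3, a calcium-binding KChIP that pairs with Kv pores and is also described as a transcriptional repressor, was high in basal cells. It was at 6.48 and 6.06 in ciliated arrays, 6.31 and 6.12 in club arrays, and 8.25 and 7.55 in basal arrays, with no overlap between basal and the others. Ciliated minus basal was -1.63 ± 0.26 (3.10-fold lower, adjusted p = 0.0046 in limma) and club minus basal -1.69 ± 0.26 (3.22-fold lower, adjusted p = 0.009). The first call ended without ciliated replicate 2 (-1.42, adjusted p = 0.055) and the second without club replicate 2 (-1.59, adjusted p = 0.059).

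Some markers of other cells were higher in basal arrays than in the rest, beside Kcnh1, Kcnv1, Kcnq5 and Kcnip3. Of 10 leukocyte markers, 4 (Cd53, Fcer1g, Laptm5 and Tyrobp) were lower in ciliated than in basal arrays and in club than in basal arrays, while Lcp1 was 1.26 higher in club than in basal arrays (adjusted p = 0.0059 in limma). The whole list summed to 1344 and 1320.3 in ciliated arrays, 1890 and 2075 in club arrays, and 1701 and 1499 in basal arrays on the linear scale. That sum is weighted to Lcp1, the list's highest gene, at 10.33 and 10.56 in club arrays. The mean log2 level of the list was 6.54 and 6.38 in ciliated, 6.37 and 6.32 in club, and 7.03 and 6.86 in basal arrays. Of 10 fibroblast markers, 2 (Dcn and Fbln1) were lower in both, and the other 8, Col1a1 and Col3a1 among them, were called in neither contrast. The list summed to 1011 and 1086 in ciliated arrays, 976 and 939.6 in club arrays, and 6356 and 5954 in basal arrays. This linear sum is weighted to the highest gene in basal arrays, Dcn, at 12.30 and 12.13 there. The part of leukocytes and fibroblasts in the basal values of these channel genes was not tested. None of 9 measured neuron and Schwann cell markers was called in any contrast, and that list summed to between 937.2 and 1112 in the 6 arrays.

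Of 15 inward rectifiers, 3 were called in some contrast, beside 24% of all genes. Kcnj13, a channel of transporting epithelia such as the retinal pigment epithelium and choroid plexus, was at 12.74 and 13.11 in ciliated arrays, 12.44 and 11.95 in club arrays, and 11.78 and 11.46 in basal arrays. The types did not overlap, yet only ciliated minus basal was called (1.31 ± 0.23, 2.48-fold, adjusted p = 0.0071 in limma). That call ended without ciliated replicate 2 (1.12, adjusted p = 0.074). Club minus basal was 0.58 (adjusted p = 0.2) and ciliated minus club 0.73 (adjusted p = 0.081). Gigyf2, which overlaps Kcnj13, was flat, between 8.82 and 8.92 in all arrays.

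Kcnj15, a rectifier of epithelia such as the gastric and renal lining, was high in club cells. It was at 5.61 and 6.21 in ciliated arrays, 7.18 and 7.27 in club arrays, and 5.87 and 6.06 in basal arrays. Both club arrays were on top, at 1.26 ± 0.22 over basal (2.39-fold, adjusted p = 0.014 in limma), while ciliated minus club was -1.31 ± 0.22 (2.48-fold lower, adjusted p = 0.0062). The club minus basal call ended when club replicate 1 was left out (1.30, adjusted p = 0.067 in limma) and when club replicate 2 was (1.21, adjusted p = 0.081).

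Kcnj2, the classical strong rectifier that holds the resting voltage of muscle cells, was at 6.41 and 6.48 in ciliated arrays, 5.57 and 4.89 in club arrays, and 5.82 and 6.44 in basal arrays. Club arrays were lowest, and only ciliated minus club was called (1.22 ± 0.28, 2.33-fold, adjusted p = 0.026 in limma). The call ended without ciliated replicate 1 (adjusted p = 0.13), ciliated replicate 2 (0.16) or club replicate 2 (0.88 on the log2 scale, adjusted p = 0.13). Kcnj16, a subunit that joins Kcnj10 or Kcnj15 in epithelial channels, did not share the pattern of Kcnj15: it lay between 4.89 and 5.19 in all arrays. Kcnj10, named after its values were seen, was at 6.57 and 6.22 in ciliated arrays, 6.80 and 7.05 in club arrays, and 6.31 and 6.20 in basal arrays and was not called. It was called in club minus basal under quantile normalization applied again and under cyclic loess.

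The two-pore-domain family, whose members leak potassium at rest, had 5 of 14 called, with cell types in differing orders. Of all genes, 24% were called in at least 1 contrast. Kcnk1, a weakly rectifying leak channel of many epithelia, was at 9.37 and 9.15 in ciliated arrays, 11.32 and 11.53 in club arrays, and 10.07 and 10.14 in basal arrays. No types overlapped, with club highest and ciliated lowest. Ciliated minus club was -2.17 ± 0.17 (4.49-fold lower, adjusted p = 0.00013 in limma) and club minus basal 1.31 ± 0.17 (2.49-fold higher, adjusted p = 0.0036). Ciliated minus basal was -0.85 ± 0.17 (adjusted p = 0.011), a call that ended without ciliated replicate 2 (-0.74, adjusted p = 0.096).

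Kcnk12 had the opposite leaning. It encodes a subunit that is largely silent when expressed alone, and it was at 8.94 and 9.77 in ciliated arrays, 7.62 and 7.33 in club arrays, and 7.48 and 7.40 in basal arrays. Ciliated arrays were on top, 3.77-fold above basal (1.92 ± 0.27, adjusted p = 0.0024 in limma) and 3.68-fold above club (1.88 ± 0.27, adjusted p = 0.0032). Both calls held under every alternative run.

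Kcnk2, a leak channel opened by membrane stretch and lipids, and Kcnk6, a relative of Kcnk1, leaned to club cells. Kcnk2 was at 6.67 and 6.64 in ciliated arrays, 7.58 and 8.35 in club arrays, and 6.76 and 6.89 in basal arrays. Club arrays were on top, with -1.31 ± 0.25 for ciliated minus club (2.48-fold lower, adjusted p = 0.011 in limma) and 1.14 ± 0.25 for club minus basal (2.20-fold, adjusted p = 0.035). The first call ended without either ciliated array (adjusted p = 0.081 and 0.091). The second ended without either ciliated array (0.091 each), either basal array (0.065 and 0.067) or club replicate 2 (0.76 on the log2 scale, adjusted p = 0.12), with 2 cell types in the fit (0.091) and with array weights (0.057).

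Kcnk6 was at 6.45 and 6.42 in ciliated arrays, 7.67 and 7.33 in club arrays, and 6.83 and 7.01 in basal arrays. The types did not overlap, and ciliated minus club was called (-1.07 ± 0.17, 2.10-fold lower, adjusted p = 0.0058 in limma) but ended without ciliated replicate 2 (adjusted p = 0.056). Club minus basal, 0.58, was called under cyclic loess but not otherwise. Kcnk5, an acid-sensitive leak channel of kidney and airway epithelia, averaged 8.47 in ciliated, 8.20 in club and 7.55 in basal arrays. Its ciliated minus basal difference of 0.92 (adjusted p = 0.023) ended without ciliated replicate 1 (0.13), ciliated replicate 2 (0.12) or basal replicate 2 (0.076).

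**Figure D3:**
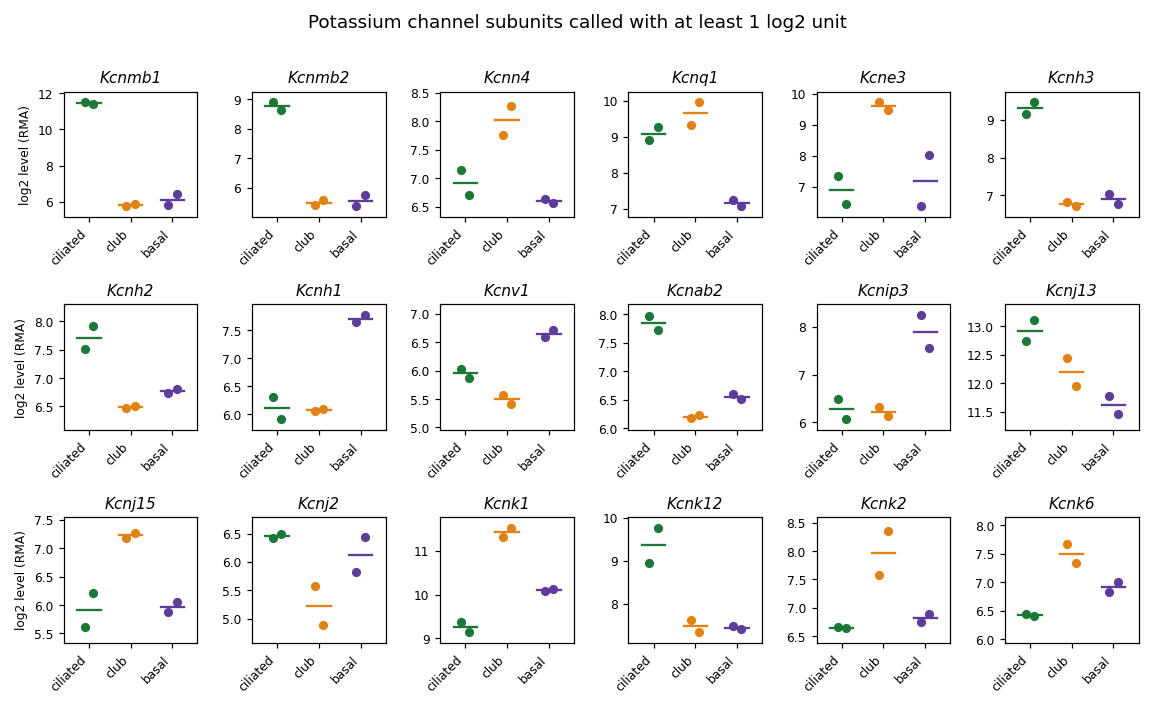
Log2 level in each array (points) and the mean of each cell type (lines) for the 18 members called with at least 1 log2 unit in some contrast, each panel with its own y range. Kcnmb1, Kcnmb2, Kcnh3 and Kcnk12 are high in both ciliated arrays, Kcnk1 and Kcnn4 in both club arrays, and Kcnh1 and Kcnip3 in both basal arrays, while the basal points of Kcne3 lie far apart.

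Some markers of rare epithelial types were also higher in club arrays, beside the 5 members that set club cells apart. Of 10 tuft cell markers, 3 (Alox5ap, Dclk1 and Trpm5) were lower in ciliated than in club arrays and 1 (Alox5ap) was higher in club than in basal arrays. The tuft list summed to 1060.5 and 1004 in ciliated arrays, 2135 and 1509.7 in club arrays, and 1233 and 1263 in basal arrays on the linear scale. Within the club pair the tuft marker Gnat3 was at 9.18 and 6.87. Of 10 ionocyte markers, 2 (Ascl3 and Atp6v1b1) were higher in club than in basal arrays. Of these, Ascl3 was also higher in ciliated than in basal arrays (0.98, adjusted p = 0.014 in limma), and Atp6v1b1, at 8.83 and 8.58 in ciliated arrays, 11.43 and 11.59 in club arrays, and 9.33 and 9.09 in basal arrays, was the only one called between ciliated and club arrays. Foxi1, the regulator that defines ionocytes, was called in no contrast. The ionocyte list summed to 2181 and 1893 in ciliated arrays, 4239 and 4658 in club arrays, and 1776 and 1766 in basal arrays. This linear sum is weighted to the list's highest gene in club arrays, Atp6v1b1. Among 10 pericyte and endothelial markers only Notch3 was called, 1.49 higher in club than in basal arrays (adjusted p = 0.0024 in limma). It was also lower in ciliated than in club arrays. Their sum was 623 and 561 in ciliated arrays, 1122 and 972 in club arrays, and 607 and 605 in basal arrays. The part of tuft cells, ionocytes, pericytes and endothelial cells in the club values was not tested.

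The other 71 members (77.2%) were called in no contrast. Their array values ran from 4.19 (Kcnt2) to 7.52 (Kcna3), and in 65 of them every difference between cell types was under 0.5 log2 units. The largest difference among them was -0.94, for Kcnj1, the renal outer medullary channel (ciliated minus club, adjusted p = 0.11 in limma). These 3 genes are named after their values were seen. Kcnj14, likewise, had 4.70 and 6.53 in the basal arrays, the widest gap between replicates of any member. With no detection calls, a level near 5 cannot be read as absence.

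Genes that work with these channels were read from a list of 48 partners and transport genes, chosen with earlier results of these data known: BK gamma subunits, Kv4 partners, sulfonylurea receptors, the sodium pump, cation-chloride cotransporters with their kinases, chloride and sodium channels, and others. In ciliated minus basal, 8 were higher and 6 lower (29.2%, beside 17.6% of all genes). In club minus basal, 8 were higher and 3 lower (22.9%, beside 8.02%), and in ciliated minus club 6 were higher and 10 lower (33.3%, beside 15.4%). The median differences were 0.04, 0.08 and 0.01, against -0.02, -0.06 and 0.04 over all genes.

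Kcnrg, Dpp6 and Slc12a7 were among the genes of this list that set ciliated cells apart. Kcnrg, a soluble protein that resembles the tetramerisation domain of Kv channels, was at 12.38 and 12.67 in ciliated arrays, 8.53 and 8.56 in club arrays, and 8.50 and 6.76 in basal arrays. It was 4.90 ± 0.48 higher in ciliated than in basal (adjusted p = 0.00039 in limma) and 3.98 ± 0.48 higher than in club arrays (adjusted p = 0.0014). Dpp6, a membrane partner that speeds the gating of Kv4 channels in neurons, was at 8.29 and 8.17 in ciliated arrays, 6.08 and 6.16 in club arrays, and 5.87 and 5.68 in basal arrays. Its differences were 2.45 ± 0.16 for ciliated minus basal (adjusted p = 4.2e-05) and 2.11 ± 0.16 for ciliated minus club (adjusted p = 0.00012). Slc12a7, a potassium-chloride cotransporter, was 1.65 higher in ciliated than in basal (adjusted p = 0.001) and 1.05 higher than in club arrays (adjusted p = 0.011).

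Of the 48 genes, 4 set ciliated cells apart (8.33%, beside 4.76% of all genes), 7 set club cells apart (14.6%, beside 1.47%) and 2 set basal cells apart (4.17%, beside 1.81%). Since the list was chosen with results known, these shares are a description of it. In club cells the genes were Lrrc26, Ano1, Slc12a2, Scnn1b, Scnn1g, Abcc8 and Stk39. Ano1, the calcium-activated chloride channel, was at 8.58 and 7.81 in ciliated arrays, 11.42 and 11.40 in club arrays, and 10.12 and 9.85 in basal arrays, with -3.22 ± 0.26 for ciliated minus club (adjusted p = 0.00017 in limma) and 1.43 ± 0.26 for club minus basal (adjusted p = 0.016). Slc12a2, the sodium-potassium-chloride cotransporter that loads cells with chloride, was at 8.57 and 7.82 in ciliated arrays, 11.01 and 10.77 in club arrays, and 9.54 and 8.20 in basal arrays, with -2.69 ± 0.43 (adjusted p = 0.0052) and 2.02 ± 0.43 (adjusted p = 0.032) in the same contrasts. Abcc8, a sulfonylurea receptor, was 1.60 higher in club than in basal arrays (adjusted p = 0.0064). The sodium channel subunits Scnn1b and Scnn1g were 2.28 (adjusted p = 0.00075) and 1.39 (adjusted p = 0.0047) higher in club than in basal arrays. Stk39, a kinase that regulates cation-chloride cotransporters, was 1.07 higher in club than in basal arrays (adjusted p = 0.0069 in limma).

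Basal cells were set apart by Slc12a4, another potassium-chloride cotransporter, and Fxyd5, a sodium pump regulator. Slc12a4 was at 6.69 and 6.78 in ciliated arrays, 6.58 and 6.71 in club arrays, and 8.59 and 9.00 in basal arrays. Basal arrays were above all others, with -2.06 for ciliated minus basal (adjusted p = 0.00024 in limma) and -2.15 for club minus basal (adjusted p = 0.00075). Fxyd5 was -1.52 in ciliated minus basal (adjusted p = 0.0025) and -1.94 in club minus basal (adjusted p = 0.0021). Slc12a4 and Slc12a7 had opposite orders of ciliated and basal cells. Cftr, the chloride channel mutated in cystic fibrosis, was at 5.66 and 5.18 in ciliated arrays, 5.63 and 5.31 in club arrays, and 4.94 and 5.07 in basal arrays and was not called.

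**Figure D4:**
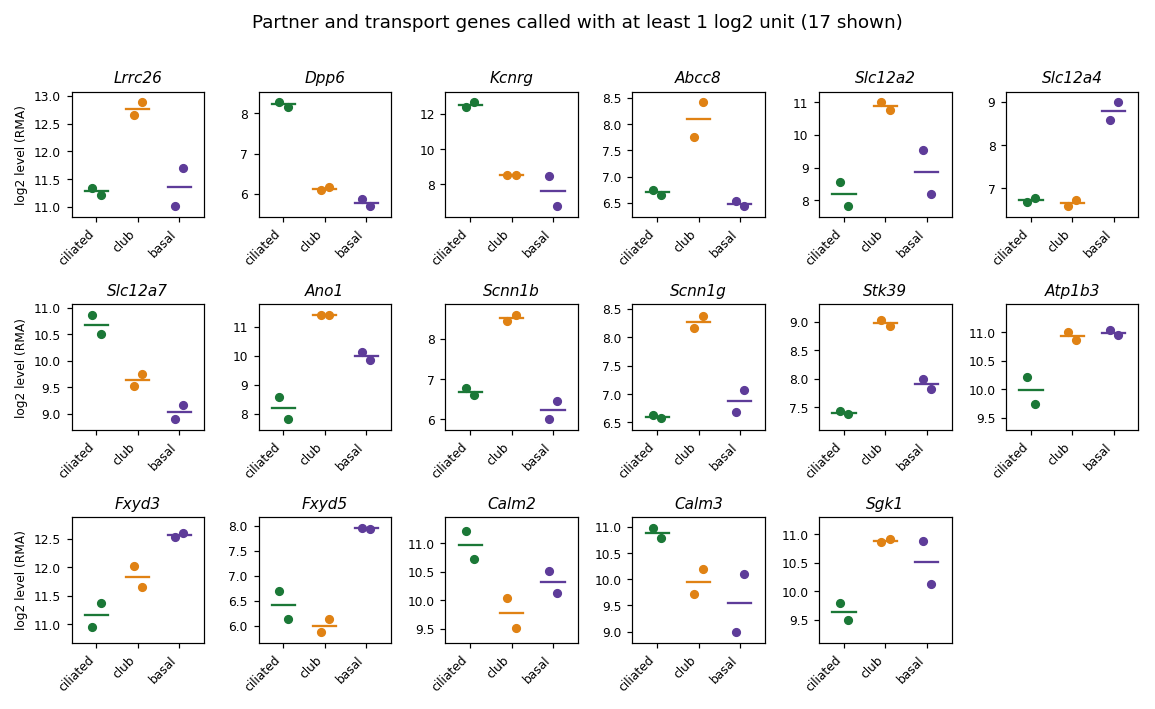
Log2 level in each array (points) and the mean of each cell type (lines) for 17 partner and transport genes called with at least 1 log2 unit in some contrast, each panel with its own y range. Dpp6, Kcnrg and Slc12a7 are highest in ciliated arrays, Lrrc26, Ano1 and Slc12a2 in club arrays, and Slc12a4 and Fxyd5 in basal arrays.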

How the data were processed

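RNA of sorted ciliated, club and basal cells of the airway surface was measured on 6 Affymetrix arrays, 2 per cell type, with biotin label per the labels' protocols. The deposited values are log2 values from RMA, per the submitters' processing notes; no version, platform or genome build is named in the labels. The authors' table holds 1 log2 value per gene and array, and for each of the 92 members 1 probe set of the deposited matrix of 35556 probe sets supplied all 6 values. The authors' line without a symbol was left out. In a deposited 50-gene table, 18 columns of another study were not used.

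Members were matched by symbol, and all 92 were current RefSeq symbols. One mean per cell type was fitted to the 6 arrays with limma 3.58.1 in R 4.3.3, with variances moderated by empirical Bayes over all 20315 genes, no further normalization and no filter on dim genes. Calls used a Benjamini-Hochberg adjusted p under 0.05 per contrast, and every p printed comes from this fit or a stated alternative. The script was tested on simulated data. Members called with at least 1 log2 unit are given in all arrays and other called members by differences or means. Other genes, called or not, are given where a result is read beside them, and not every called gene of the partner list is described. The members and lists were chosen with earlier results of these data known. The number of arrays limits the precision. The alternatives were quantile normalization applied again, cyclic loess, median centring, leaving out the genes in the lowest 25% of mean level, array quality weights, a trend in the variance, 2 cell types in the fit, the replicate number as a block, and leaving out each array in turn. One gene of the partner list is counted but not reported here.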

Additional observations from a re-analysis of the deposited data

How the results depend on the processing

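Of the 38 named calls, 19 held under every one of the 14 alternatives, 19 were lost under at least 1, and 0 reversed. With single arrays left out, members called numbered 8 to 14 in ciliated minus basal, 4 to 10 in club minus basal and 8 to 14 in ciliated minus club, and members setting a type apart 5 to 6 for ciliated, 1 to 4 for club and 1 to 2 for basal cells. With an array left out, the lone array of its type is assumed to vary like the others. A contrast's difference is unchanged when an array of the third type is left out, and only its p-values change. With 2 cell types in the fit, club cells were set apart by 3 members. Over all genes, club minus basal calls numbered 1050 with 2 types in the fit, against 1629 with 3. The lowest counts without 1 array were 1907 (ciliated minus basal) and 1587 (ciliated minus club), both without ciliated replicate 2, and 783 (club minus basal) without club replicate 1. The cause was not tested. Array numbers were shared between types. The deviations of same-numbered arrays had r 0.260 for ciliated and club, 0.0521 for ciliated and basal, and 0.265 for club and basal, over 20315 genes. With 2 arrays per type there is no reference for unpaired samples, so these values cannot show whether the numbers pair the samples. With the replicate block, members called numbered 14, 11 and 13, and the ciliated minus club call of Kcnc1 was lost (adjusted p = 0.051 in limma). Signal over background could not be assessed without detection calls. Kcnc1 lay among the genes removed by the filter on dim genes and has no value there.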
